A study of Homo sapiens with 5 samples.

Results

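The genes described here are 10 subunits of the SWI/SNF and NuRD chromatin remodelling complexes, taken by gene symbol from a table of 25343 gene rows: ARID1A, ARID1B, ARID2, PBRM1, SMARCA4, SMARCC1 and SMARCD1 of SWI/SNF, and CHD4, MTA1 and MBD3 of NuRD. All 10 were found, and all 10 were among the 13604 genes with enough reads to be tested. The libraries came from SW620, a human colon carcinoma line, and every library of both groups carried the genotype tet-MUC1shRNA, a tetracycline-inducible short hairpin RNA against the mucin gene MUC1. Cultures were given doxycycline, which turns such a hairpin on, or its vehicle. The 3 libraries named neg (replicates 1, 2 and 3) were compared with the 2 named pos (replicates 1 and 3). The labels do not say which name stands for which treatment, so the names are kept. The sources used here do not say whether the line is a single clone. With the same hairpin in every library, an effect of doxycycline itself and one of the hairpin cannot be told apart. Nothing in the labels ties the libraries of a group to separate experiments beyond culture in triplicate, so p-values measure the spread between these libraries, which may be technical.

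SWI/SNF complexes use the energy of ATP to slide or evict nucleosomes, and they open promoters and enhancers to transcription factors. Human cells assemble them in alternative forms, called BAF, PBAF and non-canonical BAF, which share an ATPase and a core of scaffold subunits and differ in subunits that only 1 form holds. NuRD joins a nucleosome-sliding ATPase of the CHD family to histone deacetylases and to proteins of the methyl-CpG-binding domain family. It is known mainly for lowering the activity of enhancers and promoters. SWI/SNF subunit genes are among the chromatin genes most often mutated in colon cancer, ARID1A above all. Work on other cancer cell lines has linked the C-terminal subunit of MUC1 to the expression of both kinds of complex, which is the question that a comparison of these genes between neg and pos addresses.

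MUC1, the hairpin's target, had 176 to 252 reads per neg library and 13 (replicate 3) and 27 (replicate 1) per pos library. The libraries held 10888704 to 14137678 reads in genes. Levels are given as CPM, a gene's reads per 1000000 reads of the library after TMM scaling, which assumes that most genes do not change. Epithelial markers of colon summed to 5062 to 6496 CPM in neg and to 6957 and 14230 CPM in pos, most of it from the keratin genes KRT8 and KRT18. Of the 7 genes on that list 1 rose and 1 fell, where 5.06% of all tested genes were called higher and 4.13% lower. CDX2, a transcription factor of intestinal epithelium, went from 20.4 to 92.9 CPM in the mean (edgeR adjusted p = 0.0337). CDH1, the E-cadherin gene, went from 522 to 163 CPM (adjusted p = 0.0434). EPCAM (log2 fold change 0.64, adjusted p = 0.0671) and VIL1 (0.22, adjusted p = 0.465) did not pass. KRT20 had 16 to 31 reads in neg and 0 and 4 in pos (adjusted p = 0.0841). Reads were 0 in every library for the leukocyte markers PTPRC and CD3E and for the fibroblast markers COL1A2 and COL3A1 (2 of 5 on that list), and the fibroblast list summed to 18.3 to 21.0 CPM in neg and 12.9 and 11.1 in pos. The leukocyte list summed to 5.63 to 7.17 CPM in neg and to 11.7 and 15.8 in pos, of which LYZ, the lysozyme gene, had 5.33 and 12.9 CPM in the group means (adjusted p = 0.0386). The part of these cell types' RNA in the results was not tested. The 2 pos libraries differed from each other, with a Pearson r of 0.912 between them in log2 CPM over all tested genes (genes are not replicates) where pairs of neg libraries had 0.983 to 0.993. Pos replicate 3 also held fewer reads of long transcripts. In the longest of 5 equal groups of genes by transcript length (5677 nt and more) genes had a median log2 ratio to the neg mean of -1.25 in pos replicate 3 and of -0.26 in pos replicate 1, while those of the shortest group (up to 1735 nt) had 1.19 and 0.37. Of the 10 subunit genes 7 lie in the longest group, so each is given below in both pos libraries separately.

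None of the 10 subunit genes passed the test between pos and neg, and the largest fitted difference among them was 2.17-fold. With edgeR's quasi-likelihood test, adjusted by Benjamini-Hochberg over all 13604 genes, 0 of 10 were higher and 0 of 10 lower at an adjusted p of 0.05. Over all tested genes 5.06% were called higher and 4.13% lower, shares at which fewer than 1 of 10 genes would be called in either direction. Below an unadjusted p of 0.05 in edgeR were 0 of the 10 and 4710 of all 13604 genes. DESeq2 also called 0, where it called 13.2% of all genes higher and 10% lower. Unadjusted, 1 of the 10 and 4922 of 13604 genes were below 0.05 in DESeq2. Limma-voom called 0 (3.62% and 4.31% of all genes), with 2 of the 10 and 4846 of all genes below an unadjusted 0.05. With library quality weights limma-voom also called 0 (1.76% and 0.742%), with 2 of the 10 and 3075 of all genes below an unadjusted 0.05. With pos replicate 3 as the lone pos library, its spread assumed to be that of neg, edgeR called 6 of the 10 lower and 1 higher, where 32.1% of all tested genes were lower and 30.9% higher. With pos replicate 1 as the lone library it called 0, where the shares were 17% and 14.4%. The fitted log2 fold change of pos over neg was below 0 for 8 of 10, with a median of -0.34 against -0.05 over all tested genes. Since that median moved to 0.19 once the length trend was removed, it gives no direction for the complexes. The groups did not overlap, with pos below neg, for PBRM1, SMARCA4, SMARCC1 and CHD4, 4 of 10 genes where the share over all tested genes was 29.3%. They did not overlap in the other direction for 0 of 10, where it was 26.7%.

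**Figure D1:**
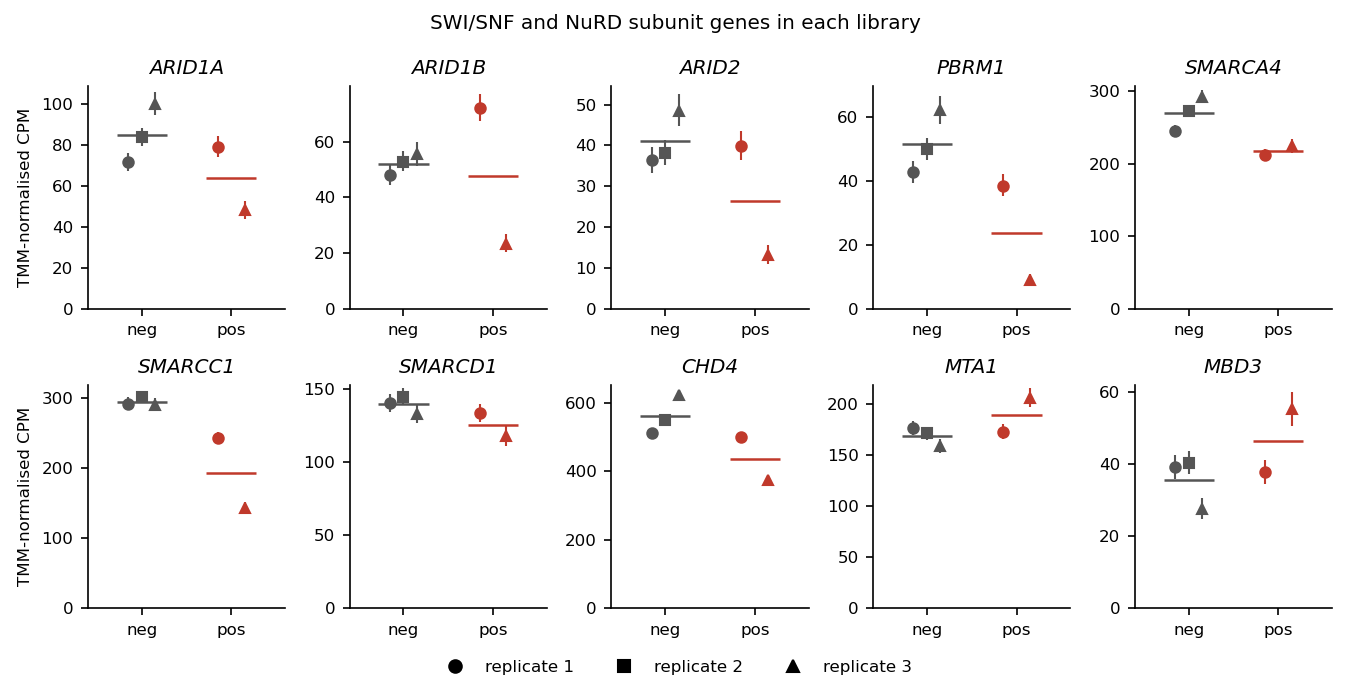
TMM-normalised CPM (vertical axes, from 0) of the 10 subunit genes in each neg (grey) and pos (red) library; marker shapes give the replicate number, bars the exact Poisson 95% interval of the reads (counting error only) and horizontal lines the group means. For ARID1A, ARID1B and ARID2 the pos libraries lie on either side of, or within and below, the neg range, while for SMARCA4 they lie together at 212 and 224 CPM under neg libraries at 245 to 293.

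The ARID subunits decide which form of SWI/SNF is assembled. ARID1A and ARID1B are alternative DNA-binding subunits of BAF, and a BAF complex holds 1 of them. ARID1A spans 26693236 to 26782104 of chromosome 1 (plus strand; GRCh38 and GENCODE 44, as for all gene positions here). It had 71.3, 83.5 and 99.7 CPM in neg replicates 1, 2 and 3 and 79.0 and 48.0 CPM in pos replicates 1 and 3. Pos replicate 1 lay inside the neg range and only pos replicate 3 below it. The group values were 84.9 ± 14.3 CPM in neg (SD, n = 3) and 63.5 ± 21.9 in pos (SD, n = 2), a log2 fold change of -0.42 (95% interval -1.12 to 0.28, edgeR adjusted p = 0.328).

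ARID1B (chromosome 6, 156776020 to 157210779, plus strand) had 48.0, 52.8 and 55.5 CPM in neg and 72.3 and 23.4 CPM in pos replicates 1 and 3. The pos libraries went to opposite sides of all 3 neg libraries, and the level in pos replicate 1 was 3.09 times that in pos replicate 3. In counting error alone the exact Poisson 95% intervals of 67.6 to 77.2 CPM and 20.4 to 26.7 CPM were far apart. The group means of 52.1 ± 3.76 (SD, n = 3) and 47.8 ± 34.5 CPM (SD, n = 2) therefore stand for neither pos library, and the log2 fold change of -0.12 had a 95% interval from -1.23 to 0.99 (edgeR adjusted p = 0.862).

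ARID2, the subunit that takes the place of the ARID1 proteins in PBAF, spans 45729706 to 45908040 of chromosome 12 (plus strand). It had 36.4, 38.2 and 48.5 CPM in neg and 39.8 and 13.1 CPM in pos replicates 1 and 3. As for ARID1A, pos replicate 1 was inside the neg range. The log2 fold change was -0.63 (95% interval -1.77 to 0.51, edgeR adjusted p = 0.362), and it was -0.07 without pos replicate 3 and -1.60 without pos replicate 1.

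PBRM1, which encodes the PBAF subunit with a row of bromodomains that read acetylated histones, had the lowest fold change of the 10. It spans 52545352 to 52685917 of chromosome 3 (minus strand). It had 42.7, 49.9 and 62.0 CPM in neg replicates 1, 2 and 3 and 38.4 and 8.86 CPM in pos replicates 1 and 3, the last from 84 reads (exact Poisson 95% interval 7.06 to 11.0 CPM). Both pos libraries were below all neg libraries, pos replicate 1 by a small step and pos replicate 3 by a large one, with a 4.34-fold difference between them. The group values were 51.5 ± 9.77 CPM (SD, n = 3) and 23.6 ± 20.9 CPM (SD, n = 2). The log2 fold change of -1.12 (SE 0.59, 95% interval -2.56 to 0.33) had an edgeR adjusted p of 0.225. It was -0.45 without pos replicate 3 and -2.49 without pos replicate 1. PBRM1 was at percentile 10.5 of the log2 fold changes of all tested genes.

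The promoter of PBRM1 is printed because this gene lay lowest, and because its window held the only match among the subunit genes to either of the motifs searched. MYC and its partner MAX bind the palindrome CACGTG, called an E-box, and E2F factors bind sites such as TTTGGCGC, TTTCCCGC, TTTGCCGC and TTTCGCGC. These letters were searched on both strands in RefSeq promoter windows (GRCh38.p14, 250 bases before to 50 after each start). Of the 10 genes 8 had 11 windows between them, and ARID2 and SMARCC1 had none. An E-box was in 1 of the 11 windows and in 7.26% of all 35116 windows, and an E2F site in 0 of the 11 and 3.31% of all. The 250 bases before the PBRM1 start, chr3:52685914-52686163 on the minus strand and 63.6% G or C, are given 5′ to 3′ with the E-box, which begins 130 bases before the start, in capitals. The match describes letters in this window and was not tested for binding.
PBRM1: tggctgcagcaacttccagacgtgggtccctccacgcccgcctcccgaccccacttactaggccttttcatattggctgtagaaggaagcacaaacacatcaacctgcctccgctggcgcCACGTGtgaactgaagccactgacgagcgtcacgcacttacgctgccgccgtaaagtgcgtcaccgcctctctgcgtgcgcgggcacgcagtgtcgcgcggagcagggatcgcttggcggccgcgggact

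The catalytic subunit and the scaffold of the core were expressed at higher levels. SMARCA4 encodes BRG1, the ATPase that drives remodelling, and spans 10960932 to 11079426 of chromosome 19 (plus strand). It had 245, 273 and 293 CPM in neg and 212 and 224 CPM in pos replicates 1 and 3. Both pos libraries were below all neg libraries and close to each other in CPM, unlike those of ARID1B or PBRM1. They were not alike once the length trend was removed. The log2 fold change was then 0.62 without pos replicate 1 and -0.20 without pos replicate 3. The group values were 270 ± 23.9 CPM (SD, n = 3) and 218 ± 8.81 CPM (SD, n = 2), and the log2 fold change was -0.31 (95% interval -0.76 to 0.14, edgeR adjusted p = 0.268).

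SMARCC1, which encodes the scaffold protein BAF155, spans 47585269 to 47782106 of chromosome 3 (minus strand). It had 292, 301 and 291 CPM in neg, the smallest spread of the 10 genes with a coefficient of variation of 1.89%, and 243 and 143 CPM in pos replicates 1 and 3. Both pos libraries were under the neg range, which was narrow beside the gap between the pos libraries. The log2 fold change of -0.61 (95% interval -1.26 to 0.04) had the smallest edgeR adjusted p of the 10, 0.163.

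SMARCD1, which encodes BAF60a, a subunit that links the complex to transcription factors, spans 50085200 to 50100707 of chromosome 12 (plus strand). Its levels were 141, 145 and 133 CPM in neg and 134 and 118 CPM in pos replicates 1 and 3. Pos replicate 1 lay just inside the neg range. The log2 fold change was -0.15 with a 95% interval of -0.59 to 0.29 (edgeR adjusted p = 0.565).

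The NuRD genes gave values on both sides of 0. CHD4, the ATPase of NuRD (chromosome 12, 6570082 to 6614524, minus strand), was the most abundant of the 10. It had 512, 551 and 625 CPM in neg and 500 and 374 CPM in pos replicates 1 and 3. Both pos libraries were under the neg range, pos replicate 1 only slightly, and the log2 fold change was -0.36 (95% interval -0.91 to 0.18, edgeR adjusted p = 0.282).

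MTA1, a scaffold subunit that binds the histone deacetylases, spans 105419820 to 105470729 of chromosome 14 (plus strand). Its levels were 176, 171 and 159 CPM in neg and 173 and 205 CPM in pos. Pos replicate 1 was within the neg range and pos replicate 3 above it. The log2 fold change was 0.17 (95% interval -0.29 to 0.62, edgeR adjusted p = 0.538) and turned to -0.24 when only library size was scaled for.

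MBD3, a member of the methyl-CpG-binding domain family that anchors NuRD, spans 1573596 to 1592865 of chromosome 19 (minus strand). It had 39.2, 40.3 and 27.6 CPM in neg replicates 1, 2 and 3 and 37.7 and 55.2 CPM in pos replicates 1 and 3. The neg libraries themselves were spread, with a coefficient of variation of 19.7%, and pos replicate 1 lay among them. The log2 fold change of 0.38 (95% interval -0.29 to 1.05, edgeR adjusted p = 0.349) was the highest of the 10. It turned to -0.05 when only library size was scaled for.

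Levels can be compared between genes only per length, here as CPM per kilobase of the canonical transcript, in neg. CHD4 led with 78.9 to 96.3 CPM per kilobase over the 3 neg libraries, followed by MTA1 with 55.2 to 61.2. SMARCA4 (43.99 to 52.5), SMARCC1 (45.8 to 47.4) and SMARCD1 (40.6 to 44.1) came next, and SMARCA4 overlapped both of the others. ARID1A had 8.30 to 11.6 CPM per kilobase, above PBRM1 (5.35 to 7.76), MBD3 (4.86 to 7.10), ARID1B (4.66 to 5.38) and ARID2 (4.24 to 5.64), of which neighbours in that order overlapped. Among the 10 genes the ARID subunits and PBRM1 were thus at lower levels per length than the ATPase and core subunits. This did not extend to the other subunits: DPF2 of BAF had a neg mean of 29.0 CPM per kilobase, above the core gene SMARCB1 at 18.5, and the ATPase gene SMARCA2 had 6.64. The value for MBD3 depends on the transcript, since its canonical transcript has 5678 nt while the median of its 6 annotated coding transcripts is 1844 nt. For ARID1B these lengths are 10310 nt and 3538 nt, and for SMARCD1 3283 nt and 1503 nt. The place of SMARCD1 after MTA1 in this order thus also depends on the transcript.

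The distance of the genes from neg went with transcript length in pos replicate 3. MTA1 (2871 nt) and SMARCD1 (3283 nt), the shortest, had log2 ratios to the neg mean of 0.29 and -0.24 in that library, while ARID1A (8595 nt), ARID2 (8598 nt), ARID1B (10310 nt) and PBRM1 (7991 nt) had -0.81, -1.63, -1.15 and -2.50. The median over all genes of the longest group was -1.25, so ARID2 and PBRM1 were below it, and ARID1A, ARID1B, SMARCC1 (-1.04), CHD4 (-0.58) and MBD3 (0.65) above it. In pos replicate 1 the 10 ratios ran from -0.40 for PBRM1 to 0.47 for ARID1B. Over the 10 genes the median ratio was -0.08 in pos replicate 1 and -0.70 in pos replicate 3, and it was -0.12, 0.02 and 0.11 in neg replicates 1, 2 and 3.

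**Figure D2:**
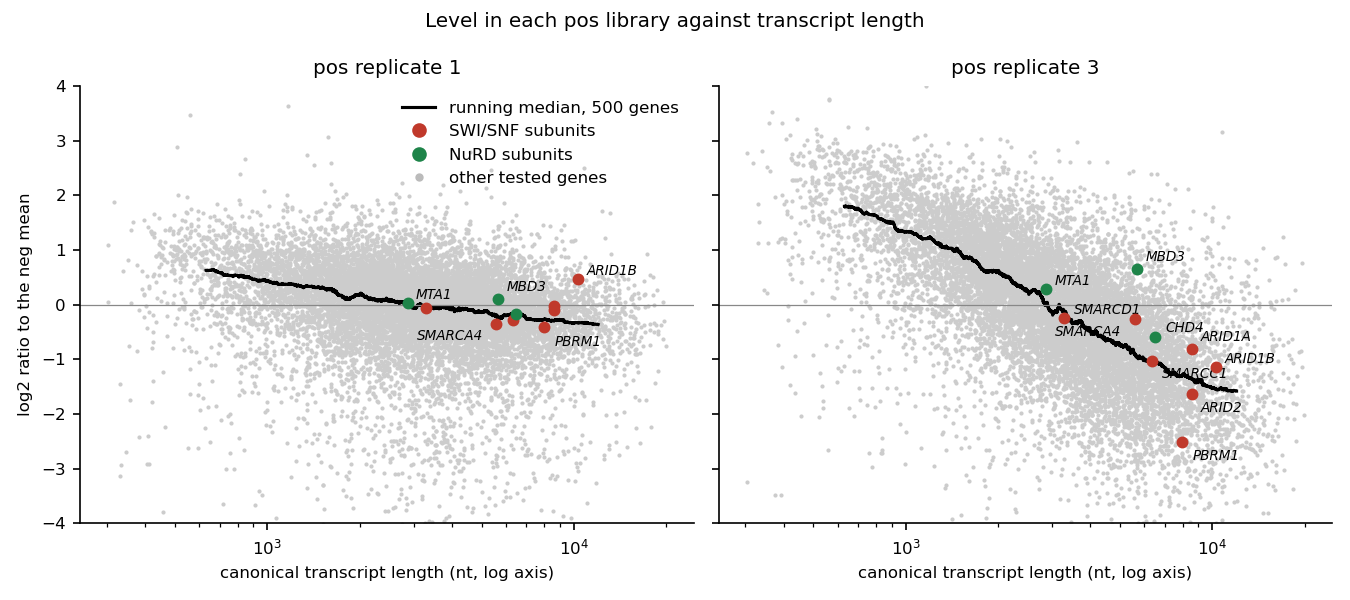
Log2 ratio to the neg mean (vertical axis) against the canonical transcript length in nt (horizontal log axis) in each pos library; grey points are tested genes from 300 to 20000 nt, the black line their running median over 500 genes, red points SWI/SNF and green points NuRD subunits (in the left panel 5 of the 10 are named). In each panel 33 genes lie beyond a ratio of 4 and are not drawn. The line slopes down steeply in pos replicate 3, with PBRM1 at -2.50 under it and MBD3 at 0.65 over it, and only slightly in pos replicate 1.

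The trend on length was removed in a further edgeR fit, in which each library's lowess curve of log2 CPM on transcript length entered as an offset. Here too 0 of 10 genes passed, where 7.13% of 13266 genes were called higher and 6.90% lower. Below an unadjusted p of 0.05 in this fit were 2 of the 10 and 4545 of the 13266 genes. The fold changes moved up for 9 of the 10 (all but MTA1), and 6 were now above 0. ARID1A went from -0.42 to 0.35 (95% interval -0.05 to 0.75, adjusted p = 0.193), SMARCA4 to 0.26 (-0.32 to 0.83, adjusted p = 0.477) and CHD4 to 0.27 (-0.13 to 0.66, adjusted p = 0.293). ARID1B went from -0.12 to 0.55 (95% interval 0.11 to 0.997, adjusted p = 0.0890). This value depends on the transcript. With the median coding transcript as the length (4048 nt, the upper middle of its coding transcript lengths) ARID1B was at 0.15 (adjusted p = 0.728). ARID2 and SMARCC1 came to -0.01 and -0.05, the latter with an interval from -0.37 to 0.27. PBRM1 alone of the long genes stayed well below 0, at -0.59 (95% interval -1.33 to 0.16, adjusted p = 0.232). MBD3 was at 1.0 (95% interval 0.05 to 1.95, adjusted p = 0.130). With the median coding transcript as the length, taken in the same way as 2782 nt, MBD3 was at 0.52 (adjusted p = 0.255). MBD3 passed in 1 fit on all 5 libraries, that with GC content removed as well (0.92, adjusted p = 0.0473), where 12.8% of all genes were called higher and 13.7% lower. In the length fit a lone pos replicate 3 gave 4 of 10 called higher and 1 lower (27.6% and 24.1% of all genes), and a lone pos replicate 1 gave 1 higher and 0 lower (16.7% and 19.3%).

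**Figure D3:**
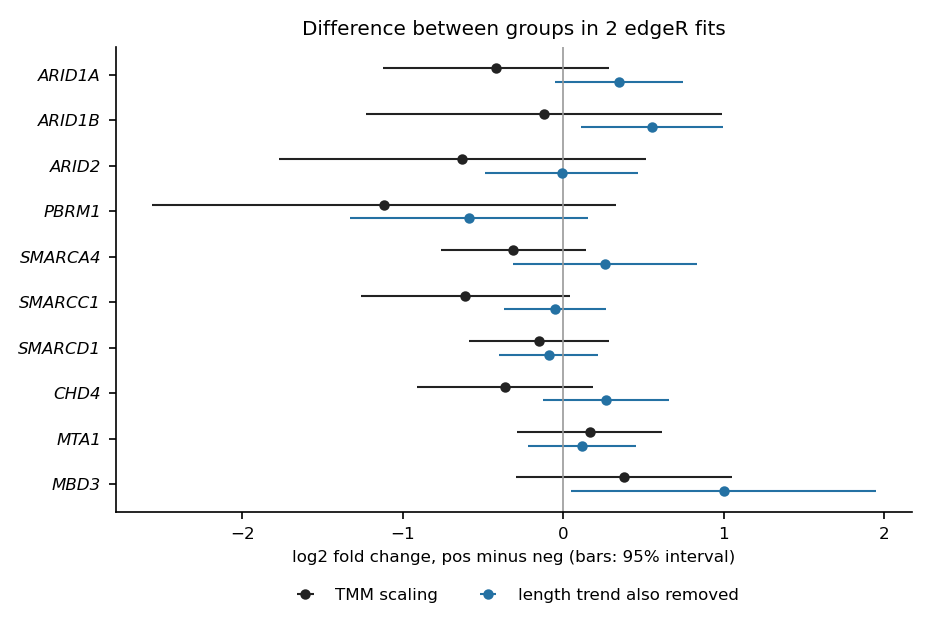
Log2 fold change of pos over neg (horizontal axis) with its 95% interval for each subunit gene, from the edgeR fit with TMM scaling (black) and from the fit with the length trend also removed (blue). Every black interval holds 0, and in blue ARID1A, ARID1B, SMARCA4 and CHD4 lie on the other side of 0 at 0.35, 0.55, 0.26 and 0.27. The blue intervals of ARID1B and MBD3, from canonical transcript lengths and unadjusted for the number of genes, do not hold 0.

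The other subunits of the complexes were taken from lists of general knowledge. Of 21 further SWI/SNF genes 19 were tested, and 1 rose and 0 fell, a share near the 5.06% higher and 4.13% lower of all tested genes. The gene that rose was SMARCE1, which encodes the DNA-binding core subunit BAF57. It went from 133 to 227 CPM in the mean, with log2 ratios to the neg mean of 0.80 and 0.75 in pos replicates 1 and 3 and a log2 fold change of 0.78 (SE 0.17, edgeR adjusted p = 0.0457). The pos libraries gave nearly the same value for SMARCE1, whose transcript has 5150 nt. With the length trend removed it was at 1.26 (adjusted p = 0.0177), or 1.25 with the replicate block as well (adjusted p = 0.0758). With the median coding transcript as the length it was at 0.79 (adjusted p = 0.0374). The call was lost without neg replicate 1, 2 or 3 (edgeR adjusted p = 0.190, 0.250 and 0.224), when only library size was scaled for (0.40, adjusted p = 0.274), with no filter (0.76, adjusted p = 0.0596) and with library quality weights in limma-voom (0.76, adjusted p = 0.137). With the replicate number as a block it was at 0.79 (adjusted p = 0.655). Log2 fold changes of the 19 ran from -1.31 for GLTSCR1L, a subunit of non-canonical BAF (adjusted p = 0.0582), to 1.25 for BCL7C, with a median of 0.27. Once transcript length was fitted out this median was 0.23. SMARCE1 and the PBAF subunit gene BRD7 (0.72, adjusted p = 0.0329) were then called higher and GLTSCR1L (-0.75, adjusted p = 0.0362) lower. These calls, 2 higher and 1 lower of 19, were near the shares of all genes in that fit (7.13% higher and 6.90% lower).

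Of 12 further NuRD genes all 12 were tested and 0 passed in either direction in edgeR. With the length trend removed the MTA1 paralogue MTA3 (0.95, adjusted p = 0.0424) and the histone-binding subunit gene RBBP4 (0.96, adjusted p = 0.0174) were called higher, where 7.13% of all genes were. RBBP4 had 147 to 156 CPM in neg and 258 and 123 CPM in pos replicates 1 and 3, on either side of neg, and without the length fit its fold change was 0.32 (adjusted p = 0.503). The deacetylase genes HDAC1 and HDAC2 had log2 fold changes of 0.37 and -0.10 and the GATAD2A gene, which encodes a linker subunit, -0.69 (adjusted p = 0.0684). The 12 ran from -1.28 to 0.88 with a median of 0.07. Of 39 subunits of other remodellers (ISWI, INO80, SRCAP and further CHD proteins) 38 were tested, 2 rose and 0 fell, again near the share of all genes, with a median of -0.39. These were POLE3, a histone-fold subunit of the ISWI complex CHRAC and of DNA polymerase epsilon (0.90, adjusted p = 0.0453), and ZNHIT1, a subunit of SRCAP with a transcript of 728 nt (2.21, adjusted p = 0.0431). ZNHIT1 was at 1.01 once canonical transcript length was fitted out, at 1.87 (adjusted p = 0.0407) with the median coding transcript as the length, and at 1.21 without pos replicate 3. Both calls were lost when any neg library was left out (edgeR adjusted p = 0.178 to 0.230), when only library size was scaled for (0.199 for POLE3 and 0.051 for ZNHIT1), with the replicate number as a block (0.581 and 0.174) and with that block in the length fit (0.544 and 0.251). That of POLE3 was also lost with no filter (0.0505) and with library quality weights (0.136), and that of ZNHIT1 in limma-voom (0.0527).

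**Figure D4:**
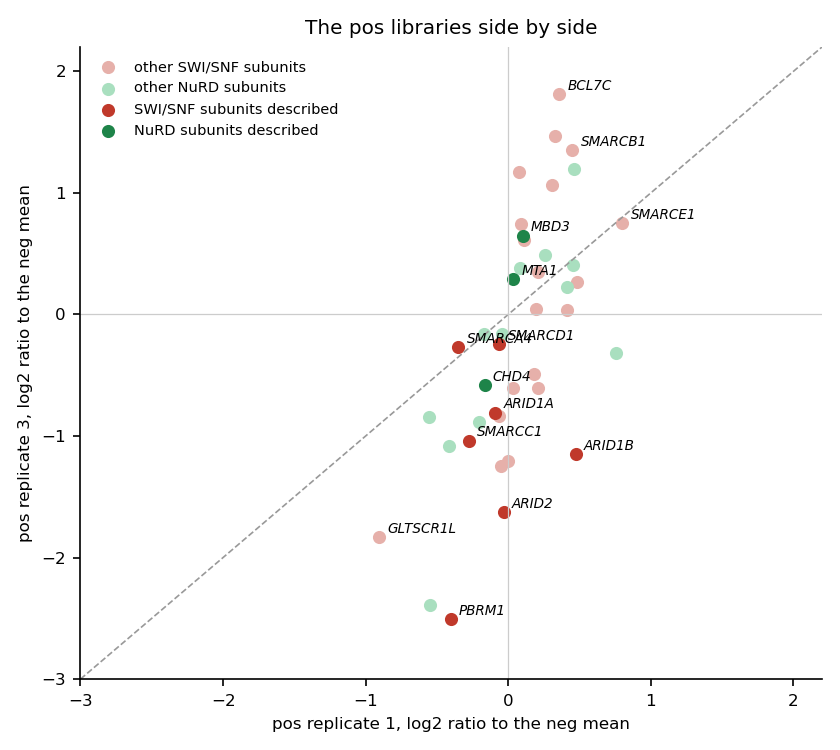
Log2 ratio to the neg mean in pos replicate 3 (vertical axis) against that in pos replicate 1 (horizontal axis) for the 10 subunit genes (dark points) and the other tested SWI/SNF and NuRD subunits (pale points); the dashed line marks equal ratios. SMARCE1 lies on the line at 0.80 and 0.75, ARID1B far under it at 0.47 and -1.15.

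Genes were also compared in 9 pairs as ratios of reads within a library, which do not depend on the scaling between libraries. Such ratios can still carry the trend on transcript length where partners differ in length. Most pairs are of paralogues, while PBRM1 to ARID2 and ARID1A to ARID2 set subunits of PBAF or BAF side by side. Reads that could come from either paralogue may have been split by the authors' counting. SMARCC1 had 1.82, 1.73 and 1.62 reads per read of its partner scaffold gene SMARCC2 in neg replicates 1, 2 and 3. The ratio was 1.23 in pos replicate 1 and 1.27 in pos replicate 3. The pos libraries lay below all neg libraries here and were spread less than they were, with transcripts of 6354 and 5090 nt. The difference in mean log2 ratio was -0.46, from 0.78 ± 0.0852 (SD, n = 3) to 0.32 ± 0.0374 (SD, n = 2). Of the 9 pairs 4 had groups that did not overlap, and the exact two-sided permutation p was 0.2 for each of them (0.45 adjusted over 9 pairs), the smallest that 3 libraries against 2 can give. For the levels of single genes, the groups did not overlap in 29.3% of all tested genes with pos lower and in 26.7% with pos higher.

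The other pairs without overlap were PBRM1 to ARID2, SMARCD1 to SMARCD2 and CHD4 to CHD3. PBRM1 and ARID2, both particular to PBAF and of like length, stood at 1.17 to 1.30 in neg and at 0.965 and 0.677 in pos replicates 1 and 3. SMARCD1 to SMARCD2 was 0.753 to 0.854 in neg and 0.714 and 0.445 in pos, with transcripts of 3283 and 2464 nt. CHD4 to CHD3, the other main ATPase gene of NuRD, was 7.65 to 9.22 in neg and 9.93 and 11.8 in pos, with transcripts of 6491 and 7385 nt. In SMARCC1 to SMARCC2, SMARCD1 to SMARCD2 and CHD4 to CHD3 the gene with the longer transcript was relatively lower in pos. PBRM1 to ARID2 went the other way. The part of transcript length in these ratios was not tested. SMARCA4 to SMARCA2, the alternative ATPase gene, was 6.79 to 7.80 in neg, with 5.61 in pos replicate 1 and 13.7 in pos replicate 3 on either side. ARID1A to ARID1B did the same, with 1.485 to 1.799 in neg and 1.09 and 2.05 in pos. MTA1 to MTA2 had 1.04 to 1.12 in neg and 1.05 and 1.02 in pos, the narrowest range of the 9.

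**Figure D5:**
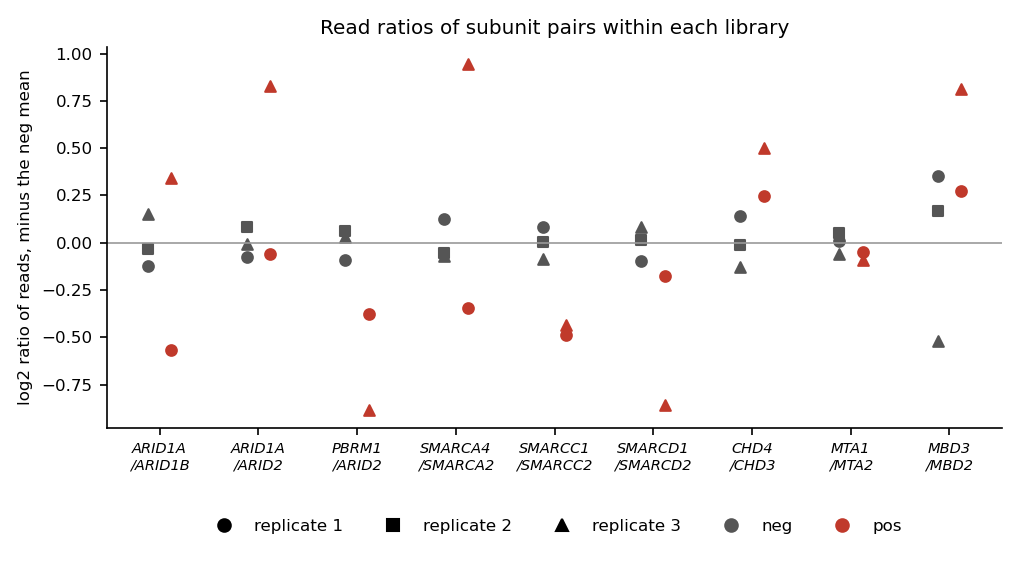
Log2 ratio of reads of each subunit gene to its partner within a library, minus the neg mean of that pair (vertical axis), for 9 pairs (horizontal axis); grey is neg, red is pos, and shapes give the replicate number. Both pos libraries lie together under neg for SMARCC1 to SMARCC2, and on opposite sides of neg for SMARCA4 to SMARCA2.

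The gene with the most similar pattern over the 5 libraries was found for each subunit gene as the smallest Euclidean distance between log2 CPM values centred on each gene's mean, among 9554 other genes with a mean of at least 10 CPM. The nearest were NUDT21 for ARID1A, CSNK1G3 for ARID1B, ARID5B for ARID2, ATP7A for PBRM1, TMEM57 for SMARCA4, APP for SMARCC1, SLC7A8 for SMARCD1, FOXP1 for CHD4, FURIN for MTA1 and HS1BP3 for MBD3, at distances of 0.0311 to 0.103. Among the 10 themselves the closest were ARID1A and CHD4, at 0.267. ARID1B and PBRM1 had no other of the 10 nearer than ARID2, at 0.576 and 0.780.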

How the data were processed

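RNA of 5 SW620 libraries was sequenced after stranded poly(A) preparation, and the authors deposited raw counts per gene symbol. Per the labels, reads were aligned with STAR. CASAVA 1.8.2, STAR 2.5.2b and DESeq2 1.24.0 are listed by the submitters' processing notes. The labels name GRCh38 and the notes hg19. How reads were counted, and whether by strand, is not given in the sources used here, so overlapping genes cannot be told apart.

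From 25435 rows, 92 spike-in rows at 0 were left out. In R 4.3.3 with edgeR 4.0.16, filterByExpr (minimum count 10, total 15) kept 13604 genes, which were TMM-scaled. The two-sided comparison of pos with neg used glmQLFit and glmQLFTest, adjusted by the Benjamini-Hochberg method. SE is the fold change over the square root of F, and intervals use edgeR's degrees of freedom. Log2 CPM used a prior count of 2. Transcript lengths are those of GENCODE 44 canonical transcripts (97.5% of tested genes), and lowess had a span of 0.3. Depth set 3 reads at 0.189 to 0.316 CPM, and intervals on reads cover counting error only, since reads carried no molecular identifiers. Chi-square per degree of freedom was 6.02 to 22.4 between neg libraries and 152 between pos libraries, so none was a duplicate. The steps were tested on simulated data.

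The 10 genes, the lists and the tests were chosen with earlier results of these data known. Named were all 10 genes, other subunits past the threshold, paralogues, extremes of each list, the MUC1 target and the nearest gene of each. HDAC1, HDAC2, GATAD2A and the genes at the ends of the lists were chosen after their values were seen. Alternatives were DESeq2 1.42.0, limma 3.58.1, other scalings and filters, a replicate block, leaving out each library, and removal of trends on length and GC content. The length from the median coding transcript was added after the data were seen. For an even number of transcripts that fit took the upper of the middle lengths, not their mean.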

Additional observations from a re-analysis of the deposited data

How the results depend on the processing

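The count of 0 of the 10 subunit genes past the threshold was the same in 16 of 20 fits on other settings. Among those 16 are the fits without neg replicate 1, 2 or 3, which called 0 of all tested genes. Their 0 of 10 was therefore fixed in advance. The fit with the replicate block called 87 of 13604 genes, so its 0 of 10 says little. The fits outside those 16 gave these counts. It was 1 (MBD3, higher) with length and GC trends removed. It was 0 to 7 when 1 library was left out, with 7 without pos replicate 1, and 5 without pos replicate 1 and 1 without pos replicate 3 when the length trend was removed as well. Fits with a lone pos library, assumed to vary like neg, describe that library, not the group. Their signs changed between fits: in the length fit with pos replicate 1 left out, ARID1A was at 0.53, SMARCA4 at 0.62 and CHD4 at 0.48, called higher as MBD3 was, PBRM1 was called lower at -1.25, and with pos replicate 3 left out ARID1B was at 0.77, called higher.

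The median log2 fold change of the 10, -0.34 at first, became 0.19 with the length trend removed, 0.13 with length and GC trends removed, 0.22 with the median coding transcript as length, 0.17 with length removed and the replicate block, and 0.28 and 0.0075 with length removed and pos replicate 1 or 3 left out. With only library size scaled for, all 10 were below 0 at a median of -0.71, while that of all tested genes moved from -0.05 to -0.41.

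Over all genes, 1251 passed in edgeR. The count was 3161 in DESeq2, 341 with library quality weights, 606 with library size only, 3512 with length and GC trends removed, 1 at an adjusted p of 0.01, and 0 to 8819 when 1 library was left out. It was 7039 and 4897 with length removed and pos replicate 1 or 3 left out. The replicate number as a block left 87 calls, or 377 with length removed, and 0 of the 10 in both. Same-numbered libraries did not deviate together from their group means (r = -0.44 and -0.45). With 2 pos libraries their deviations are mirror images and include the length difference between them. These values are therefore not separate and cannot exclude a pairing by number. The labels name no block, so the replicate number was kept as an alternative. Without any 1 neg library edgeR called 0 genes, while 2510 to 3033 were below an unadjusted p of 0.05. The cause of these changes was not tested. The intervals given hold the fold changes compatible with these libraries and are unadjusted for the number of genes. The size of change that 3 libraries against 2 could detect was not tested.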
